A study of Zanthoxylum armatum with 24 samples.

Results

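A set of genes that bring sucrose, hexoses and trehalose into or out of floral sugar metabolism were followed in developing male and female flowers of *Zanthoxylum armatum*, green prickly ash. They are 7 of the 60592 genes listed for each library, and they were chosen by their IDs, which are Zardc11215 (*ZaTPPD*), Zardc31272 (*ZaTPPF*), *ZaTPS6*, Zardc36683 (*ZaSUS2*), Zardc45769 (*ZaCWI1*), Zardc33026 (*ZaFRK1*) and Zardc33027 (*ZaPGMP*). The names come from the closest *Arabidopsis* protein in the supplement of the study, which picked the genes as differentially expressed in these same libraries. The paper describes its sugar gene lists as up-regulated at maturation in males or in females, or in males against females. Calls of such genes as higher in those contrasts were thus favoured by the choice. The counts of calls and the p-values of the 7 genes are therefore no independent evidence. The running text of the paper calls Zardc33027 *ZaTPS11*, whereas its table gives the plastidial phosphoglucomutase name used here. The ID of *ZaTPS6* is one of 5257 listed IDs outside the Zardc series.

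RNA-seq libraries were made from buds pooled over several trees of the same sex at 4 stages: undifferentiated primordia (M1 and F1), primordia initiation (M2 and F2), primordia differentiation (M3 and F3), and development and maturation (M4 and F4). The labels give no treatment and no genotype beyond the sex of the trees, and the sexes came from different trees. Each group has 3 libraries except M2, which has 2 here, because the values deposited for M2 replicate 3 cover 183 genes, 182 of them equal to M3 replicate 1, and hold 0 of the 7 genes. Whether replicates or stages share trees is not stated, so the SD is a spread between pools.

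Sucrose arriving in a sink organ is cleaved by sucrose synthase and by vacuolar and cytosolic invertases inside the cell, and by cell wall invertase outside it. Fructokinase then phosphorylates the fructose, and plastidial phosphoglucomutase interconverts the glucose phosphates that feed starch. Trehalose phosphate is a sugar signal made by trehalose phosphate synthase and removed by trehalose phosphate phosphatase, and in maize a phosphatase of this family, RAMOSA3, shapes the branching of the inflorescence.

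The qRT-PCR primers that the study designed for *ZaSUS2*, 5′ to 3′ with all bases in capitals, are shown because this gene was the one called between the sexes at primordia differentiation. Values from those reactions were not analysed here, nor were genome positions.
*ZaSUS2* forward primer, 22 bases: TGGTATTCTTCGCAAGTGGATT
*ZaSUS2* reverse primer, 21 bases: ATCGGGAACACCCTGTAACTC

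The deposited values are FPKM, which scales fragments by the length of the gene and the number of mapped fragments. Whole fragment counts could be read back from the steps of the FPKM values for 38733 of the 38734 tested genes, and they gave 11882302 to 14967518 fragments per library. The squared correlation of log2(FPKM + 1) within groups was 0.957 to 0.972. The study's supplement gives lower RNA integrity for every F3 and F4 sample than for the male samples of the same stage. It also gives the lowest share of mapped reads for F3. Among the male groups, M3 had the lowest RNA integrity and the lowest share of mapped reads. The part of RNA quality in the contrasts with M3, F3 and F4 was not tested. Floral identity genes moved strongly with stage. The summed mean level of 8 *AP3* genes, which specify petals and stamens, was 0.0, 0.697, 6.41 and 37.6 FPKM in M1 to M4, against 0.0387, 0.26, 1.12 and 9.56 FPKM in F1 to F4. The summed mean level of 3 *PI* genes was 135.0 FPKM in M4 and 4.85 FPKM in F4. The 2 *STK* genes, ovule identity genes, summed to 0.117 FPKM in M4 and 6.87 FPKM in F4, and both reached 1 FPKM in F4 alone. Other genes active in carpels were high in both sexes at maturation, with 53.8 FPKM in M4 and 58.0 FPKM in F4 for *AG*, which acts in stamens and carpels, and 13.3 FPKM in M4 and 33.0 FPKM in F4 for the sum of 2 *SHP1* genes. These libraries are whole buds, so more cells of an organ and more RNA per cell cannot be told apart in any difference below, and the part of the changing organs in it was not tested.

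Genes that reached 1 FPKM in 3 or more libraries were tested, and 7 of 7 did. *ZaTPS6* and *ZaSUS2* reached 1 FPKM in 7 and 8 of 11 male libraries and in 0 of 12 female libraries, so both entered through the males alone. *ZaTPPD* reached it in 8 of 11 male and 2 of 12 female libraries, so the females alone would not have brought it in either. For *ZaTPS6*, *ZaSUS2* and *ZaTPPD*, the p-values between the sexes thus describe these libraries and are no independent evidence of a male excess. Limma was fitted to log2(FPKM + 1) with all 8 groups at once. A gene passed the test where its p, adjusted after Benjamini and Hochberg, was no higher than 0.05, and was called when its absolute log2 fold change was also at least 1. The added 1 draws the fold changes of weak genes toward 0, so ratios of mean FPKM are given beside them. The stage and sex contrasts share libraries and are not independent of each other.

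The genes sat at very different levels. *ZaPGMP* lay between 13.9 and 88.9 FPKM over the 23 libraries and *ZaFRK1* between 4.56 and 24.3 FPKM. *ZaCWI1* and *ZaTPPF* reached at most 10.8 and 9.57 FPKM. *ZaTPPD* stayed at or below 1.59 FPKM outside M4, and *ZaTPS6* and *ZaSUS2* reached at most 2.11 and 2.12 FPKM. The mean level of *ZaPGMP* was above that of 85.3% of the tested genes, and that of *ZaTPS6* above 7.6%.

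**Figure D1:**
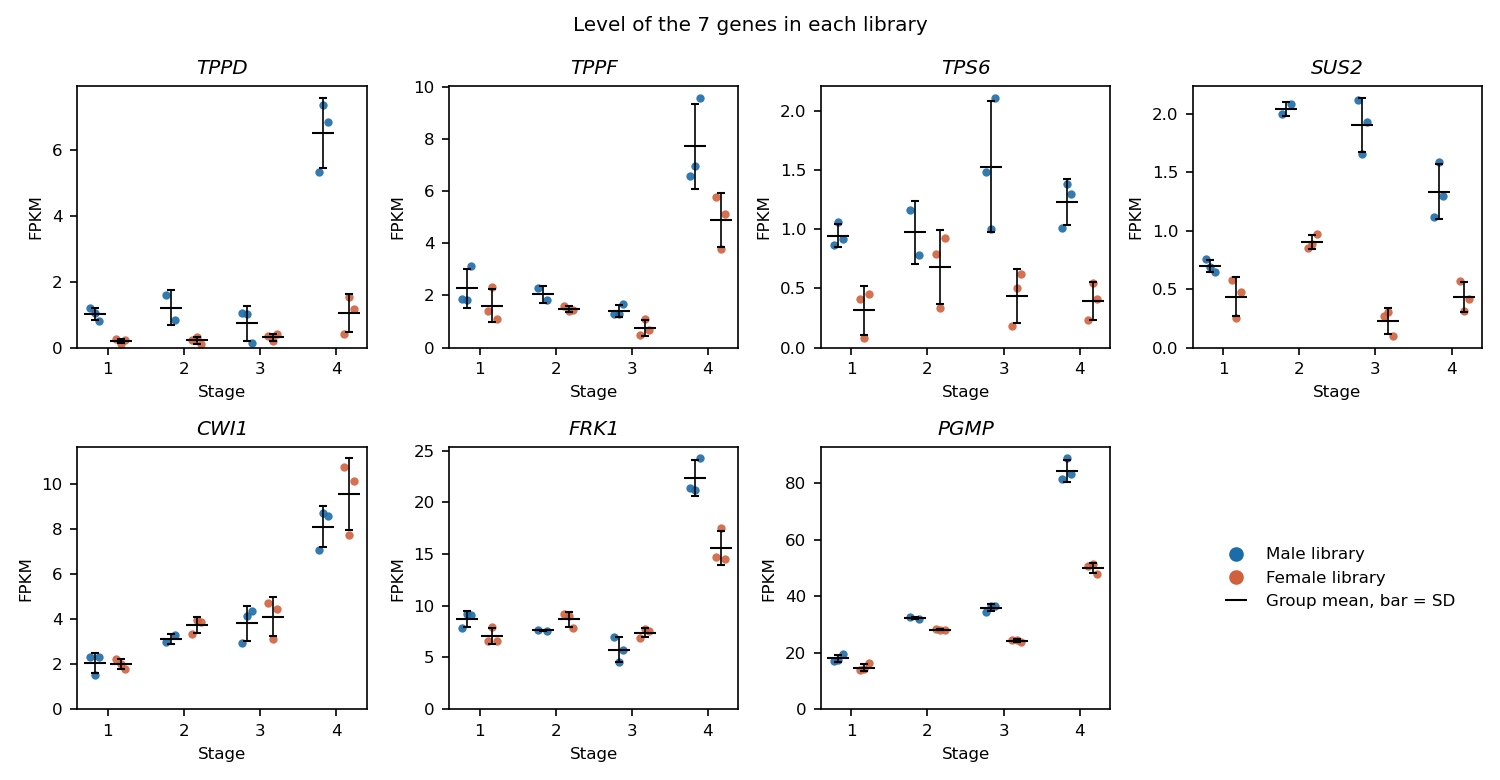
FPKM of the 7 genes in each of the 23 libraries by stage, with male libraries to the left of female libraries, and with the group mean and SD as black marks. TPPD stands at 5.32 to 7.36 FPKM in M4 and at 1.59 FPKM or less in every other library, whereas SUS2 is highest in M2 and M3.

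The phosphatase gene *ZaTPPD* was higher in males and rose at maturation, above all in M4. It had 5.32, 7.36 and 6.84 FPKM in M4, against 1.06, 1.01 and 0.128 FPKM in M3. These M4 libraries held 90, 126 and 118 fragments of the gene, and the M3 libraries held 16, 16 and 2. The 3 M4 libraries stood above all others, and M3 replicate 3 stood low, with 2 fragments and an exact Poisson interval of 0.24 to 7.22 for counting error alone. The ratio of the means was 8.87, and the log2 fold change in M4vs.M3 was 2.16 (SE 0.22, adjusted p = 1.49e-07).

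In females *ZaTPPD* had 0.408, 1.54 and 1.17 FPKM in F4, against 0.350, 0.190 and 0.404 FPKM in F3. Those F4 libraries held 7, 26 and 19 fragments, and those F3 libraries 5, 3 and 6. The lowest F4 library lay just above the highest F3 library. The ratio of the means was 3.3, and the log2 fold change in F4vs.F3 was 0.59 (SE 0.22, adjusted p = 0.0402). This pass was lost when F3 replicate 1, 2 or 3 or F4 replicate 2 or 3 was left out, with adjusted p of 0.0544 to 0.195 and log2 fold changes of 0.42 to 0.64. It was also lost in the fit to recovered fragments, where the log2 fold change was larger (1.515, SE 0.685, adjusted p = 0.0819).

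The male rise of *ZaTPPD* was larger than the female one by 1.56 on the log2 scale (SE 0.32, adjusted p = 0.00119 for the interaction, limma). Without M3 replicate 3 the difference was 1.28 (adjusted p = 0.00296). It was 1.76 and called with a pseudocount of 0.5 (adjusted p = 0.00797), whereas it did not pass at 1.96 with a pseudocount of 0.1 (adjusted p = 0.0767) or at 2.01 with the recovered fragments (adjusted p = 0.103), nor when tested against the fold threshold (adjusted p = 1.0).

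*ZaTPPD* was also higher in males before maturation. It had 1.20, 1.05 and 0.814 FPKM in M1, against 0.250, 0.117 and 0.231 FPKM in F1. At stage 2 it had 1.59 and 0.834 FPKM in M2, against 0.219, 0.316 and 0.117 FPKM in F2. The male and female libraries did not overlap at either stage, and the ratios of the means were 5.12 and 5.58. The female values rest on 2 to 5 fragments per library. The log2 fold change was 0.75 in M1vs.F1 (SE 0.22, adjusted p = 0.0147) and 0.84 in M2vs.F2 (SE 0.25, adjusted p = 0.02). With the recovered fragments both were called, at 2.23 (adjusted p = 0.0222) and 2.38 (adjusted p = 0.0226). The pass at stage 1 was lost without M1 replicate 1 (0.69, adjusted p = 0.0543), and that at stage 2 without M2 replicate 1 (0.59, adjusted p = 0.244) or F2 replicate 3 (0.78, adjusted p = 0.0597). Without M2 replicate 2 the stage 2 value was 1.09 (adjusted p = 0.0238) and was called.

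At stage 3 the sexes overlapped in *ZaTPPD*, because M3 replicate 3 (0.128 FPKM) lay below every F3 library. The log2 fold change in M3vs.F3 was 0.35 (SE 0.22, adjusted p = 0.229), and 0.63 without that library (adjusted p = 0.0246). At stage 4 the M4 libraries stood above the 0.408, 1.54 and 1.17 FPKM in F4, with a ratio of 6.26 and a log2 fold change in M4vs.F4 of 1.91 (SE 0.22, adjusted p = 1.03e-06). Averaged over the 4 stages, *ZaTPPD* was higher in males by 0.96 (SE 0.12, adjusted p = 9.1e-07). This value passed 1 when M2 replicate 2 (1.03), M3 replicate 3 (1.03) or F4 replicate 2 (1.01) was left out, and it was 2.06 with the recovered fragments (adjusted p = 1.8e-05).

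The second phosphatase gene, *ZaTPPF*, rose at maturation in both sexes. It had 6.59, 6.98 and 9.57 FPKM in M4, against 1.27, 1.28 and 1.69 FPKM in M3. It had 5.79, 3.77 and 5.13 FPKM in F4, against 0.497, 1.09 and 0.683 FPKM in F3. Neither pair of groups overlapped. The log2 fold change was 1.84 in M4vs.M3 (SE 0.20, adjusted p = 2.04e-07) and 1.74 in F4vs.F3 (SE 0.20, adjusted p = 4.19e-07), with ratios of the means of 5.45 and 6.46. The difference between the male and female changes was 0.10 (SE 0.28, adjusted p = 0.862), and its sign depended on the scale.

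Before maturation *ZaTPPF* stayed between 1.11 and 3.12 FPKM in M1, M2, F1 and F2 and was lowest in F3. It fell by 0.51 in F3vs.F2 (SE 0.20, adjusted p = 0.0422) and by 0.56 in F3vs.F1 (SE 0.20, adjusted p = 0.0278) on the log2 scale. The F3vs.F2 pass was lost without F2 replicate 1, 2 or 3 or F3 replicate 1 or 3 (adjusted p 0.0723 to 0.16). The F3vs.F1 pass was lost without F1 replicate 2 or F3 replicate 1 or 3 (adjusted p 0.0649 to 0.164). With the recovered fragments neither fall passed, at -1.03 in F3vs.F2 (adjusted p = 0.0682) and -1.05 in F3vs.F1 (adjusted p = 0.0627). Without the filter F3vs.F2 did not pass (adjusted p = 0.0592). Between the sexes, *ZaTPPF* was higher in M4vs.F4 by 0.56 (SE 0.20, adjusted p = 0.025), a pass lost without M4 replicate 3 (0.42, adjusted p = 0.13) or F4 replicate 2 (0.42, adjusted p = 0.128). That pass was also lost with a pseudocount of 0.1 (0.65, adjusted p = 0.0797). Averaged over the stages *ZaTPPF* was higher in males by 0.41 (SE 0.10, adjusted p = 0.00192).

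The balance of the phosphatase genes was read within each library as FPKM of *ZaTPPD* over FPKM of *ZaTPPF*, as a description without a test. The ratio was 0.715 to 1.05 in M4 and 0.0705 to 0.408 in F4. At stage 2 it was 0.461 and 0.702 in M2, against 0.0823 to 0.224 in F2. At stage 3 the sexes overlapped, with 0.076 to 0.832 in M3 and 0.174 to 0.705 in F3, where counts were lowest. Between these genes, *ZaTPPF* was thus the more abundant in every library of both sexes outside M4. In M4 the median ratio was 0.808.

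The synthase family gene *ZaTPS6*, in *Arabidopsis* a class II member with both a synthase and a phosphatase domain, was weak and higher in males at 3 stages. It had 0.866, 1.06 and 0.918 FPKM in M1, against 0.411, 0.0771 and 0.456 FPKM in F1. It had 1.48, 0.999 and 2.11 FPKM in M3, against 0.184, 0.501 and 0.621 FPKM in F3. It had 1.01, 1.38 and 1.30 FPKM in M4, against 0.230, 0.544 and 0.406 FPKM in F4. At each of these stages every male library was above every female library. The male libraries of M1, M3 and M4 held 11 to 25 fragments, and the female libraries of F1, F3 and F4 held 1 to 7.

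The log2 fold change of *ZaTPS6* was 0.58 in M1vs.F1 (SE 0.18, adjusted p = 0.0211), 0.81 in M3vs.F3 (SE 0.18, adjusted p = 0.00168) and 0.68 in M4vs.F4 (SE 0.18, adjusted p = 0.00526). The ratios of the means were 3.01, 3.51 and 3.13, and with the recovered fragments the log2 fold changes were 1.73 (adjusted p = 0.0227), 1.82 (adjusted p = 0.00676) and 1.63 (adjusted p = 0.0112), all called. The stage 1 pass was lost without M1 replicate 2 (0.54, adjusted p = 0.0661) or F1 replicate 2 (0.44, adjusted p = 0.11). At stage 2, 1.16 and 0.784 FPKM in M2 overlapped 0.791, 0.333 and 0.927 FPKM in F2, with a log2 fold change of 0.24 (SE 0.21, adjusted p = 0.461). Averaged over stages, males were higher by 0.58 (SE 0.09, adjusted p = 4.24e-05), and by 1.44 with the recovered fragments (SE 0.26, adjusted p = 7.29e-05). Unlike the phosphatase genes, *ZaTPS6* gave no pass in any stage contrast of either sex, with adjusted p of 0.531 in M4vs.M3 and 0.905 in F4vs.F3.

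The sucrose synthase gene *ZaSUS2* rose early in males, stayed high through differentiation, and was low in females. It had 0.755, 0.690 and 0.649 FPKM in M1, 2.001 and 2.08 FPKM in M2, 2.12, 1.66 and 1.93 FPKM in M3, and 1.12, 1.59 and 1.29 FPKM in M4. It had 0.577, 0.256 and 0.476 FPKM in F1, 0.849, 0.889 and 0.969 FPKM in F2, 0.272, 0.308 and 0.0982 FPKM in F3, and 0.566, 0.315 and 0.420 FPKM in F4. The male libraries were above the female ones at each stage, with ratios of the means of 1.6, 2.26, 8.42 and 3.08 from stage 1 to stage 4.

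In males *ZaSUS2* rose in M2vs.M1 (0.84, SE 0.14, adjusted p = 0.000109) and M3vs.M1 (0.77, SE 0.13, adjusted p = 5.28e-05), short of the fold threshold on this scale. With the recovered fragments, 70 and 72 in M2 and 54 to 66 in M3 against 23 to 26 in M1, the log2 fold changes were 1.60 (adjusted p = 2.47e-05) and 1.47 (adjusted p = 2.79e-05), past the threshold. In M4vs.M3 the value was -0.32 (SE 0.13, adjusted p = 0.0524), which passed without M3 replicate 2 (-0.38, adjusted p = 0.0431), M4 replicate 2 (-0.39, adjusted p = 0.0354), F1 replicate 2 or F3 replicate 3 (both -0.32, adjusted p = 0.0467 and 0.0457), and with the recovered fragments (-0.51, adjusted p = 0.0424).

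In females *ZaSUS2* rose in F2vs.F1 (0.41, SE 0.13, adjusted p = 0.0169) and fell by 0.64 in F3vs.F2 (SE 0.13, adjusted p = 0.000356). The F2vs.F1 pass was lost without F1 replicate 2 (0.32, adjusted p = 0.0971) or F2 replicate 3 (0.39, adjusted p = 0.056). With the recovered fragments, 8, 10 and 3 in F3 against 32, 29 and 34 in F2, the fall was 2.09 on the log2 scale (SE 0.40, adjusted p = 0.000168). In F4vs.F3 the value was 0.23 (SE 0.13, adjusted p = 0.165).

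The sex difference of *ZaSUS2* passed the test at stages 2, 3 and 4. In M3vs.F3 the log2 fold change was 1.24 (SE 0.13, adjusted p = 2.22e-07), the only call of the gene on this scale, and 3.16 with the recovered fragments (SE 0.38, adjusted p = 6.98e-07). It was higher in males by 0.68 in M2vs.F2 (SE 0.14, adjusted p = 0.00142) and 0.70 in M4vs.F4 (SE 0.13, adjusted p = 0.000142), and the value in M1vs.F1 was 0.25 (SE 0.13, adjusted p = 0.145). Averaged over the stages males were higher by 0.72 (SE 0.06, adjusted p = 1.87e-08). With the recovered fragments these differences were also called, at 1.20 in M2vs.F2 (adjusted p = 0.000463), 1.63 in M4vs.F4 (adjusted p = 8.82e-05) and 1.68 over the stages (adjusted p = 4.98e-09), and the value in M1vs.F1 was 0.73 (adjusted p = 0.0946).

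The change from stage 1 to stage 3 of *ZaSUS2* was higher in males than in females by 0.997 (SE 0.18, adjusted p = 0.000742). This difference lay just short of the fold threshold and was called without M1 replicate 1 (1.02), M3 replicate 2 (1.06), F1 replicate 2 (1.09) or F3 replicate 1 (1.03) or 2 (1.05), and with the recovered fragments (2.43, adjusted p = 0.00149). The change from stage 3 to stage 4 was lower in males by 0.54 (value -0.54, SE 0.18, adjusted p = 0.0357). That pass was lost without M3 replicate 1 or 3, M4 replicate 1 or 3, F3 replicate 3, or F4 replicate 1 or 3, with values of -0.47 to -0.55 and adjusted p of 0.0581 to 0.0944, and with only the compared groups in the fit (adjusted p = 0.0953), whereas the recovered fragments gave a call (-1.52, adjusted p = 0.028).

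**Figure D2:**
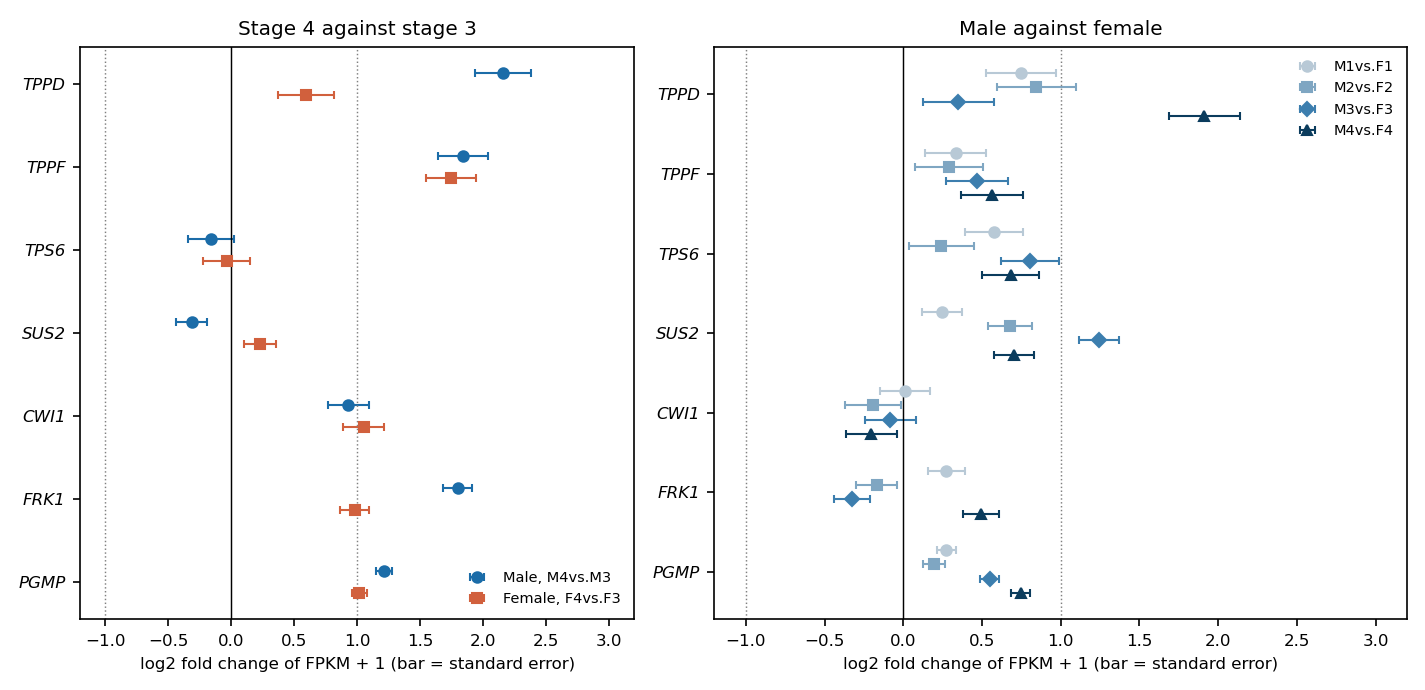
Log2 fold changes of FPKM + 1 with standard errors for the 7 genes, at left M4vs.M3 (blue circles) and F4vs.F3 (orange squares), at right males against females at stages 1 to 4. Dotted lines mark the fold threshold, which on this scale TPPD (2.16) and FRK1 (1.80) passed in males alone, and which SUS2 passed in M3vs.F3 (1.24). FRK1 was at 0.98 in F4vs.F3 and was called there with the recovered fragments (1.09).

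The cell wall invertase gene *ZaCWI1* was higher at stage 3 than at stage 1 and higher again at stage 4 in both sexes, and no difference between them passed the test. It had 2.30, 1.53 and 2.32 FPKM in M1, 2.96 and 3.28 FPKM in M2, 2.92, 4.13 and 4.36 FPKM in M3, and 7.04, 8.67 and 8.57 FPKM in M4. It had 2.24, 2.01 and 1.79 FPKM in F1, 3.31, 3.95 and 3.87 FPKM in F2, 4.72, 3.10 and 4.45 FPKM in F3, and 10.8, 7.71 and 10.1 FPKM in F4. The highest values of both sexes were at maturation, and the sexes overlapped at stages 1, 3 and 4, while the M2 libraries lay just below those of F2.

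*ZaCWI1* rose in M4vs.M3 (0.93, SE 0.16, adjusted p = 9.29e-05) and in F4vs.F3 (1.05, SE 0.16, adjusted p = 2.16e-05), with ratios of the means of 2.13 and 2.33. Only the female change was called on this scale, and both sat at the fold threshold: the female value was 0.90 without F3 replicate 2 and 0.97 without F4 replicate 1, and the male value was 1.02 without M3 replicate 3 or M4 replicate 1. With the recovered fragments both changes were called, at 1.10 in M4vs.M3 (adjusted p = 2.06e-05) and 1.26 in F4vs.F3 (adjusted p = 1.96e-06). It also rose in M3vs.M1 (0.65, SE 0.16, adjusted p = 0.00276), F2vs.F1 (0.65, SE 0.16, adjusted p = 0.00414) and F3vs.F1 (0.75, SE 0.16, adjusted p = 0.000853), and the value in M2vs.M1 was 0.44 (SE 0.18, adjusted p = 0.0703). The step between stages 2 and 3 did not pass in either sex, with 0.21 in M3vs.M2 (adjusted p = 0.483) and 0.10 in F3vs.F2 (adjusted p = 0.666), and the groups overlapped. Averaged over the stages the male minus female difference was -0.12 (SE 0.08, adjusted p = 0.248).

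The balance of these genes, which leaves out the other invertases, was described by the ratio of *ZaSUS2* to *ZaCWI1* FPKM within each library. In males it was 0.28 to 0.451 in M1, 0.635 and 0.677 in M2, 0.401 to 0.728 in M3 and 0.151 to 0.183 in M4. In females it was 0.127 to 0.267 in F1, 0.225 to 0.257 in F2, 0.0221 to 0.0994 in F3 and 0.0409 to 0.0527 in F4. The male libraries were above the female libraries at each stage, and the invertase transcript was the more abundant in all 23 libraries. Transcript ratios are no measure of enzyme activity, which was not measured here.

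**Figure D3:**
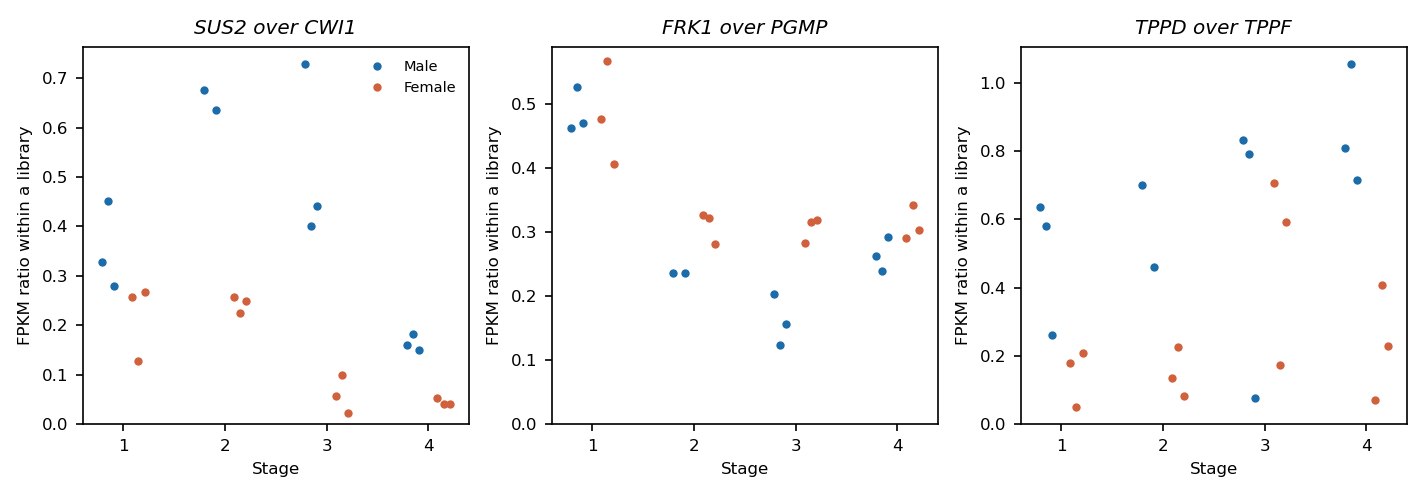
Ratio of FPKM within each library for SUS2 over CWI1, FRK1 over PGMP and TPPD over TPPF, by stage, with male libraries to the left of female libraries and 1 point per library. The SUS2 over CWI1 ratio stayed at or above 0.151 in males and at or below 0.0994 in F3 and F4. In F1 (0.127 to 0.267) and F2 (0.225 to 0.257) it overlapped the range of the males over all stages.

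The fructokinase gene *ZaFRK1* rose at maturation in both sexes, and more in males. It had 21.4, 21.2 and 24.3 FPKM in M4, against 7.003, 4.56 and 5.73 FPKM in M3. It had 14.7, 17.5 and 14.6 FPKM in F4, against 6.92, 7.74 and 7.52 FPKM in F3. No M4 or F4 library overlapped the earlier stage. The log2 fold change was 1.80 in M4vs.M3 (SE 0.12, adjusted p = 1.45e-10) and 0.98 in F4vs.F3 (SE 0.12, adjusted p = 9.79e-07), with ratios of the means of 3.87 and 2.11. The female value passed the fold threshold without F3 replicate 2 (1.01), F4 replicate 1 (1.02) or F4 replicate 3 (1.02). It was also called with pseudocounts of 0.1 (1.06) and 0.5 (1.02) and with the recovered fragments (1.09, adjusted p = 2.47e-07). The male change was larger by 0.82 (SE 0.17, adjusted p = 0.00116), and by 0.88 with the recovered fragments (adjusted p = 0.00137).

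Before that, *ZaFRK1* dipped in males. It had 7.85, 9.19 and 9.12 FPKM in M1 and 7.67 and 7.55 FPKM in M2, both above the M3 libraries. It fell by 0.54 in M3vs.M1 on the log2 scale (SE 0.12, adjusted p = 0.00101). Females stayed between 6.57 and 9.21 FPKM over F1, F2 and F3. The change from stage 1 to stage 3 was lower in males by 0.60 (value -0.60, SE 0.17, adjusted p = 0.0175), a pass lost without M3 replicate 2 (-0.47, adjusted p = 0.0503). Males were lower in M3vs.F3 by 0.33 (value -0.33, SE 0.12, adjusted p = 0.0323), a pass lost without M3 replicate 2 (-0.19) or 3 (-0.33) or F3 replicate 2 (-0.30) or 3 (-0.31), with adjusted p of 0.0623 to 0.209. With the recovered fragments it was lost as well (-0.34, adjusted p = 0.104). Males were higher in M4vs.F4 by 0.49 (SE 0.12, adjusted p = 0.00198), and averaged over stages the difference was 0.07 (SE 0.06, adjusted p = 0.363).

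The plastidial phosphoglucomutase gene *ZaPGMP* was the most abundant of the 7 and the most tightly replicated. It averaged 17.9 ± 1.28 FPKM in M1, 32.2 ± 0.35 in M2, 35.8 ± 1.29 in M3 and 84.5 ± 3.92 in M4. It averaged 14.7 ± 1.30 FPKM in F1, 28.0 ± 0.18 in F2, 24.2 ± 0.49 in F3 and 49.96 ± 1.72 in F4 (SD, n = 3, and 2 in M2). No adjacent groups in the order of these 8 means overlapped: M4, F4, M3, M2, F2, F3, M1 and F1, from high to low.

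*ZaPGMP* rose in each sex when primordia were initiated, by 0.81 in M2vs.M1 (SE 0.07, adjusted p = 1.17e-08) and 0.89 in F2vs.F1 (SE 0.06, adjusted p = 5.25e-10). It then fell by 0.21 in F3vs.F2 (SE 0.06, adjusted p = 0.00889). It was higher in M3vs.M1 by 0.96 (SE 0.06, adjusted p = 1.13e-10) and in F3vs.F1 by 0.69 (SE 0.06, adjusted p = 1.79e-08). The male value was called without M1 replicate 3 (1.02). The difference of these changes between the sexes was 0.28 (SE 0.08, adjusted p = 0.0307), a pass lost without M1 replicate 1 or 2, M3 replicate 2 or 3 or F1 replicate 3 (0.21 to 0.26, adjusted p 0.0607 to 0.0883).

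At maturation *ZaPGMP* was called in both sexes, with 1.21 in M4vs.M3 (SE 0.06, adjusted p = 1.92e-12) and 1.02 in F4vs.F3 (SE 0.06, adjusted p = 3.7e-11). The female value sat at the fold threshold, at 0.999 without F4 replicate 2 and 0.93 after quantile normalization. Males were higher in this fit at each stage, by 0.27 in M1vs.F1 (SE 0.06, adjusted p = 0.00161), 0.19 in M2vs.F2 (SE 0.07, adjusted p = 0.0435), 0.55 in M3vs.F3 (SE 0.06, adjusted p = 6.17e-07) and 0.75 in M4vs.F4 (SE 0.06, adjusted p = 6.12e-09). The stage 1 pass was lost with only M1 and F1 in the fit (adjusted p = 0.0604). The stage 2 pass was lost without M2 replicate 1 or 2, F2 replicate 1, 2 or 3, M4 replicate 3 or F4 replicate 1 (0.18 to 0.21, adjusted p 0.0506 to 0.19). Averaged over the stages males were higher by 0.44 (SE 0.03, adjusted p = 4.89e-10).

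*ZaFRK1* and *ZaPGMP* carry consecutive gene IDs, as do their closest *Arabidopsis* genes. The strand setting of the counting is not stated, so reads of overlapping neighbours could not be told apart. Their profiles were not copies of each other: the ratio of *ZaFRK1* to *ZaPGMP* FPKM was 0.463 to 0.527 in M1, 0.236 in both M2 libraries, 0.124 to 0.204 in M3 and 0.239 to 0.292 in M4. In females it was 0.406 to 0.568 in F1, 0.282 to 0.326 in F2, 0.283 to 0.318 in F3 and 0.29 to 0.342 in F4. Their correlation over the 8 group means of log2(FPKM + 1) was 0.77. Of 24946 tested pairs with consecutive IDs, 8.1% had a correlation at least as high, and the median was 0.117. These points share libraries, so the values are descriptions.

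Counted over the genes, calls between male stages were made in M4vs.M3 only, a contrast by which the study also chose sugar genes as up-regulated. In M2vs.M1, 0 of 7 were called, against 4.92% of the 38734 tested genes in either direction, and 2 of 7 (*ZaSUS2* and *ZaPGMP*) passed the test as higher, against 14.8%. In M3vs.M2, 0 of 7 were called and 0 passed, against 2.52% and 17.6% of the tested genes in either direction. In M3vs.M1, 0 of 7 were called (6.22% in either direction), 3 passed as higher (20.0%) and 1 passed as lower (20.3%). In M4vs.M3, 4 of 7 (*ZaTPPD*, *ZaTPPF*, *ZaFRK1* and *ZaPGMP*) were called higher, against 4.50% of the tested genes, and 5 of 7 passed as higher, against 19.8%. At an unadjusted limma p of at most 0.05 the counts were 3, 2 and 5 of 7 in M2vs.M1, M3vs.M2 and M3vs.M1. The share of all tested genes at that cut-off was not computed, so these counts are not read further. In the same order, the fit to recovered fragments called 1, 0 and 2 as higher, against 4.39%, 1.93% and 5.55% of its 38733 genes. It called 5 as higher in M4vs.M3, against 6.23%. The median log2 fold change of the 7 was 1.21 in M4vs.M3 and that of all tested genes was -0.01.

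Between female stages, calls were likewise made at maturation only, in F4vs.F3, by which the study also chose sugar genes as up-regulated. In F2vs.F1, 0 of 7 were called (4.21% in either direction) and 3 (*ZaSUS2*, *ZaCWI1* and *ZaPGMP*) passed as higher (15.0%). In F3vs.F2, 0 of 7 were called (7.10% in either direction) and 3 (*ZaTPPF*, *ZaSUS2* and *ZaPGMP*) passed as lower (20.9%). In F3vs.F1, 0 of 7 were called (6.52% in either direction), 2 passed as higher (21.1%) and 1 as lower (21.5%). In F4vs.F3, 3 of 7 (*ZaTPPF*, *ZaCWI1* and *ZaPGMP*) were called higher, against 4.25% of the tested genes, and 5 of 7 passed as higher, against 21.6%. At an unadjusted limma p of at most 0.05 the counts were 4, 3 and 3 of 7 in F2vs.F1, F3vs.F2 and F3vs.F1, again without a share of all tested genes. The fit to recovered fragments called 1 higher in F2vs.F1, against 2.3% of its 38733 genes. It called 1 lower in F3vs.F2, against 2149 of the 38733, and 0 in F3vs.F1. In F4vs.F3 it called 4 as higher, against 6.67%. The median log2 fold change of the 7 was 0.98 in F4vs.F3 and that of all tested genes was 0.

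Between the sexes, most members that passed were higher in males. However, *ZaTPPD*, *ZaTPS6* and *ZaSUS2* met the filter on low values only through the males. The study also listed sugar genes for being up-regulated in males. The counts are therefore no support for a male bias of the set. In M1vs.F1, 0 of 7 were called (3.93% in either direction) and 3 passed as higher in males (17.2%). In M2vs.F2, 0 of 7 were called (4.83% in either direction) and 3 passed as higher (12.0%). In M3vs.F3, 1 of 7 (*ZaSUS2*) was called higher (3.66%), 3 passed as higher (20.9%) and 1 (*ZaFRK1*) as lower (19.5%). In M4vs.F4, 1 of 7 (*ZaTPPD*) was called higher (4.64%) and 6 passed as higher (22.6%), the exception being *ZaCWI1*. For the difference averaged over stages, 0 of 7 were called (2.86% in either direction) and 5 passed as higher in males (26.8%), with a median of 0.44 against 0 over all tested genes. At an unadjusted limma p of at most 0.05 the counts were 4 in M1vs.F1, 3 in M2vs.F2 and 5 for the average, without a share of all tested genes. In the same order, the fit to recovered fragments called 2, 2 and 3 as higher in males, against 4.56%, 6.15% and 5.71% of its 38733 genes. It called 2 as higher in M3vs.F3 and 3 in M4vs.F4, against 7.19% and 8.26%.

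For the change from stage 1 to stage 3 set against that of the other sex, 0 of 7 were called (2.98% in either direction), 2 passed as higher in males (8.69%) and 1 as lower (7.89%). At an unadjusted limma p of at most 0.05 the count was 3, without a share of all tested genes. With the recovered fragments 1 was called higher (2.92%). For the change from stage 3 to stage 4, 1 of 7 (*ZaTPPD*) was called higher in males (2.56%), 2 passed as higher (9.61%) and 1 as lower (10.8%). With the recovered fragments 0 were called higher (2.83%) and 1 (*ZaSUS2*) was called lower, against 1450 of 38733 genes. With so few members, none of these shares is read as more than a count.

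The study's supplement lists 31 other genes under starch and sucrose or galactose metabolism, and 27 of them were tested. They too come from lists that the study drew from genes up-regulated in these libraries, at maturation or in males. Their counts, above all of genes called higher, are thus no independent evidence. In M4vs.M3, 10 of the 27 were called higher and 1 lower, with a median log2 fold change of 0.71. Of all 38734 tested genes, 1743 were called higher and 1249 lower. In F4vs.F3, 12 of the 27 were called higher and 0 lower, with a median of 0.94, against 1648 and 1318 of all tested genes. The median of the 7 genes was thus above that of the 27 in males (1.21 and 0.71) and close to it in females (0.98 and 0.94), a description that was not tested. In M4vs.F4, 5 of the 27 were called higher in males and 4 lower, against 1796 and 1346 of all tested genes. Their median was 0.13, where the median of the 7 was 0.68.

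**Figure D4:**
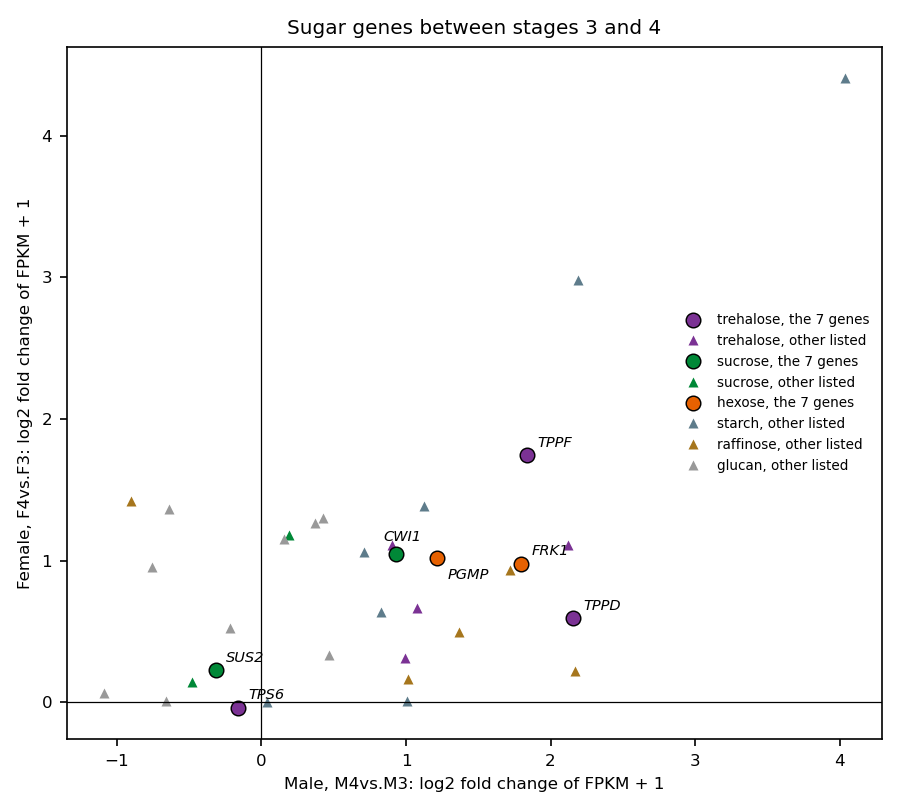
Log2 fold change of FPKM + 1 in M4vs.M3 (x axis) against F4vs.F3 (y axis) for the 7 genes (named circles) and the 27 other tested sugar genes (triangles), coloured by the sugar they act on. TPPD sits at 2.16 in males and 0.59 in females, and SUS2 and TPS6 lie near 0 on both axes.

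A further 7 of the listed genes act on trehalose or sucrose, and 6 were tested. Among the synthase family genes, the *ZaTPS11* gene listed outside the Zardc series averaged 18.4 ± 0.99 FPKM in M4 and 3.46 ± 0.35 in M3, against 8.22 ± 0.46 in F4 and 3.28 ± 0.22 in F3. It was called in M4vs.M3 (2.12, SE 0.12, adjusted p = 1.86e-11), F4vs.F3 (1.11, SE 0.12, adjusted p = 2.9e-07) and M4vs.F4 (1.07, SE 0.12, adjusted p = 6.43e-07), and its maturation change was larger in males by 1.01 (SE 0.17, adjusted p = 0.000198). That last value fell under 1 without M3 replicate 1 (0.96), M4 replicate 3 (0.98), F3 replicate 3 (0.98) or F4 replicate 1 (0.97). In undifferentiated primordia it was lower in males, with a log2 fold change in M1vs.F1 of -0.61 (SE 0.12, adjusted p = 0.000665), where *ZaTPS6* was higher.

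The second *ZaTPS11* gene, Zardc08022, with which the first may share reads, was lower in males in M1vs.F1 (-1.04, SE 0.10, adjusted p = 2.12e-07) and averaged over stages (-0.50, SE 0.05, adjusted p = 1.65e-07). The stage 1 value was -0.95 without M1 replicate 1 and -0.97 without F1 replicate 2. It rose in M4vs.M3 (1.08, SE 0.10, adjusted p = 3.74e-08) and F4vs.F3 (0.67, SE 0.10, adjusted p = 2.02e-05). *ZaTPS9* (Zardc10599) rose in M4vs.M3 (0.99, SE 0.14, adjusted p = 7.58e-06), which was 1.06 when M3 replicate 2 was left out and 1.03 when M4 replicate 3 was, and was higher in M4vs.F4 (0.63, SE 0.14, adjusted p = 0.000994). *ZaTPS9* was lower in males in M1vs.F1 (-0.42, SE 0.14, adjusted p = 0.0257), so that *ZaTPS6* was the only listed and tested gene of the synthase family that was higher in males at stage 1.

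The further phosphatase gene *ZaTPPI* (Zardc11194) rose at maturation in males (0.91, SE 0.16, adjusted p = 9.62e-05) and females (1.11, SE 0.16, adjusted p = 8.37e-06; 0.98 without F4 replicate 3). It averaged 3.67 ± 0.22 FPKM in M4 and 3.84 ± 0.84 FPKM in F4, below *ZaTPPF* in both groups. The vacuolar invertase gene *ZaVI1* (Zardc31270) fell by 1.43 in M2vs.M1 (SE 0.26, adjusted p = 0.000211), rose in F4vs.F3 (1.19, SE 0.23, adjusted p = 0.000272), and was lower in M4vs.F4 (-0.81, SE 0.23, adjusted p = 0.007). The last value was -0.55 without M4 replicate 2 (adjusted p = 0.0599) and -1.05 without M4 replicate 1.

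The sucrose phosphate synthase gene *ZaSPSB* (Zardc04055), whose product makes sucrose, moved unlike *ZaSUS2*. It averaged 2.75 ± 0.10 FPKM in M1, 1.83 ± 0.46 in M2, 1.13 ± 0.10 in M3 and 0.522 ± 0.052 in M4, against 3.93 ± 0.42 FPKM in F1, 0.422 ± 0.044 in F2, 2.47 ± 0.89 in F3 and 2.78 ± 0.46 in F4. It fell by 1.79 in F2vs.F1 (SE 0.15, adjusted p = 1.38e-08), rose by 1.26 in F3vs.F2 (SE 0.15, adjusted p = 1.07e-06), and was lower in M4vs.F4 (-1.31, SE 0.15, adjusted p = 8e-07). *ZaSPSC* (Zardc32583) averaged 0.347 to 0.877 FPKM over the groups and was not tested.

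The likeness of profiles was measured as Pearson's r over the 8 group means of log2(FPKM + 1), given without a test because the groups share stages and sexes. Among the 7 genes, *ZaTPPF* and *ZaFRK1* were most alike (0.931), followed by *ZaCWI1* and *ZaPGMP* (0.894), *ZaTPPD* and *ZaTPPF* (0.854) and *ZaTPS6* and *ZaSUS2* (0.853). The last pair had r of 0.037 and -0.068 with *ZaFRK1*. Between 217 and 1090 of 38733 other tested genes were as like each of the 7 as its nearest fellow. Among the other listed genes the nearest were *ZaSIP2* to *ZaTPPD* (0.913), *ZaBE1* to *ZaTPPF* (0.948), *ZaBAM2* to *ZaTPS6* (0.901) and *ZaSUS2* (0.828), *ZaSBE2.2* to *ZaCWI1* (0.902) and *ZaPGMP* (0.943), and *ZaBAM3* to *ZaFRK1* (0.935).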

How the data were processed

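Flower buds pooled from several trees of the same sex gave 24 labelled RNA-seq libraries, 23 of which were used. The deposited values are FPKM: the authors aligned clean reads to the published *Z. armatum* genome and counted them with HTSeq. The submitters' processing notes name the aligner Bowtie 0.12.2 and mm8, a mouse build, without a role, so whether Bowtie made these alignments is not stated.

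Genes reaching 1 FPKM in 3 or more libraries (38734 of 60592) were tested on log2(FPKM + 1) with limma 3.58.1 (trend, R 4.3.3), all 8 groups in 1 fit with 15 residual degrees of freedom, and Benjamini-Hochberg adjustment within each contrast over all tested genes. Adjusted p-values are limma's throughout. The procedure was tested on simulated data. Tables and figures were made with Python 3.11.15, pandas 2.3.3, numpy 2.4.6 and matplotlib 3.10.9.

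The 7 genes and the gene lists were chosen with earlier results of these data known. By the naming rule, all 7 were described, and of the other listed genes those acting on trehalose or sucrose, plus the nearest profiles. Alternatives were pseudocounts of 0.1 and 0.5, no filter, quantile normalization, only the groups compared, a replicate block, a test against the fold threshold, and leaving out each library. The use of adjusted p alone and of limma-voom on recovered fragments was chosen after seeing the data. Whole fragments were recovered within a tolerance of 0.02 for 38733 tested genes, with 11882302 to 14967518 fragments per library, although counts of weak genes could be off by a common factor. The intervals of fragment counts are 95% exact Poisson intervals and cover counting error only.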

Additional observations from a re-analysis of the deposited data

Results flagged for a closer look

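The change of *ZaTPPD* (Zardc11215) from stage 3 to stage 4 differed between the sexes by a test of the difference itself in the fit of the report, though not under every alternative. It was larger in males than in females by 1.56 on the log2(FPKM + 1) scale (SE 0.32, adjusted p = 0.00119, limma), with means of 6.51 and 0.733 FPKM in M4 and M3 and of 1.04 and 0.315 FPKM in F4 and F3. It did not pass with a pseudocount of 0.1 (1.96, adjusted p = 0.0767), with recovered fragments (2.01, adjusted p = 0.103) or against the fold threshold (adjusted p = 1.0), and it was 1.28 (adjusted p = 0.00296) without M3 replicate 3, which held 2 fragments of the gene.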

How the results depend on the processing

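With the settings of the report, 4, 3, 2, 0 and 1 members were called in the male stage, female stage, sex, stage-averaged sex and interaction contrasts. In the same order the counts were 7, 5, 9, 3 and 1 with a pseudocount of 0.1, 7, 4, 5, 1 and 2 with 0.5, and 4, 1, 1, 0 and 0 when tested against the fold threshold. Chosen after seeing the data, limma-voom on recovered fragments gave 8, 6, 9, 3 and 2, and adjusted p alone gave 11, 14, 16, 5 and 6. These counts add up contrasts that share libraries, and the share of all tested genes moves with the setting too. In M4vs.M3, 4.50% were called higher in the fit of the report and 6.23% with recovered fragments. On adjusted p alone 19.8% passed as higher. A larger count is thus not read as a stronger result. With quantile normalization the counts were 4, 2, 2, 0 and 1, and they were the counts given first without a filter and with only the groups compared, where the passes of *ZaTPPD* in F4vs.F3 (adjusted p = 0.0945), *ZaTPPF* in F3vs.F1 (0.097) and *ZaFRK1* in M3vs.F3 (0.161) were lost, as were the differences between male and female changes to stage 3 of *ZaFRK1* (0.0683) and *ZaPGMP* (0.115). Leaving out 1 library at a time gave 4 to 5, 2 to 4, 2 to 3, 0 to 1 and 1 to 2. Same-numbered libraries did not deviate together over the tested genes (correlations of -0.078 to 0.091 over 33 pairs), which cannot show whether they share trees. With a replicate block the counts stayed at 4, 3, 2, 0 and 1, while *ZaTPPF* in F3vs.F2 had adjusted p = 0.0506.

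Of 2480 recomputed fold changes, 6 had the other sign, all of them the small difference of *ZaTPPF* between male and female maturation changes. It was -0.221 and -0.0195 with pseudocounts of 0.1 and 0.5, -0.2823 with recovered fragments, -0.0517 without M4 replicate 3, -0.0372 without F3 replicate 2 and -0.0496 without F4 replicate 2, and 0.2053 at most when a library was left out. The cause was not tested. Depth limits *ZaTPPD*, *ZaTPS6* and *ZaSUS2* most, since female libraries held as few as 2, 1 and 3 of their fragments.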
